A study of Mus musculus with 12 samples.

Results

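The 40 genes described here act in the cell division cycle and in DNA replication, and were chosen by name: all 40 were found among the 13703 genes of the authors' deposited comparison table. They were read in polyadenylated RNA from islets of euglycemic female mice of the genotype NOD/ShiLtJ wild-type, an inbred strain whose islets are infiltrated by immune cells and which develops autoimmune diabetes. Mice 9 weeks old received anti-CD3, an antibody against the T cell receptor complex, at 2.5 mg/kg once per week for 4 weeks (6 libraries), or IgG, the control antibody, on the same schedule (6 libraries). Islets were isolated with collagenase 2 or 3 days after the last dose. The labels do not say whether a library came from 1 mouse or from pooled mice, so p-values measure the spread between libraries. The values are counts that the authors divided by 1 size factor per library, called normalized counts below.

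A dividing cell passes from G1, where D-type and E-type cyclins and E2F transcription factors commit it to a new round, into S phase, where the MCM helicase opens the DNA and nucleotide-making enzymes supply its building blocks. Mitotic cyclins, Cdk1 and the polo and aurora kinases then drive mitosis, and kinesins and other spindle proteins separate the chromosomes. Most of these transcripts are made only in cycling cells. Adult beta and acinar cells divide rarely, while activated lymphocytes divide fast. D-type cyclins differ from the other genes in that resting cells can also make them, and Ccnd2 is a well-known regulator of mouse beta cell growth after birth. In whole-islet RNA, fewer cells of a type and less RNA per cell cannot be told apart.

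The libraries held 10994337 to 19284740 counts with anti-CD3 and 11891132 to 17628347 with IgG, and 2004 to 3868 counts with anti-CD3 and 2587 to 19997 with IgG fell in the 40 genes. Although the tissue is labelled as islets, a list of digestive enzyme and other acinar genes took 56.7% to 63.0% of counts with anti-CD3 and 27.9% to 61.6% with IgG, and a list of 27 islet endocrine genes took 1.09% to 2.31% with anti-CD3 and 1.45% to 4.35% with IgG. None of the islet endocrine genes was at 0 in any library. IgG 6 stood apart from the other 11 libraries, with the lowest acinar share (27.9%), the largest size factor (2.52) and the most counts in the 40 genes, and IgG 5 had the next lowest acinar share (47.3%). Ptprc, the pan-leukocyte surface protein CD45, had 41.3, 242 and 548 normalized counts with anti-CD3 (lowest, median, highest), against 70.9, 418 and 2340 with IgG, where IgG 6 was the highest. Cd3e, of the T cell receptor complex, spanned 8.5 to 52.3 with anti-CD3 and 19.1 to 142 with IgG, and Cd79a, of the B cell receptor, 7.28 to 93.8 with anti-CD3 and 12.4 to 401 with IgG. Insulin (Ins2) spanned 93000 to 188000 with anti-CD3 and 83200 to 144000 with IgG, and the acinar carboxypeptidase Cpa1 408000 to 608000 with anti-CD3 and 95300 to 559000 with IgG. The main results below are therefore also given without IgG 5 and IgG 6.

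Promoter sequences are shown for the 6 genes whose values are followed most closely below, because motifs in such promoters are known to govern when in the cycle a gene is read. They come from RefSeq (GRCm38.p6), run 5′ to 3′ on the strand of the gene and span 250 bases before to 50 bases after the start. Capitals mark, on either strand, the cell cycle homology region (CHR, written TTTGAA or TTTAAA), the CCAAT box (CCAAT) and 4 forms of the E2F motif (TTTCGCGC, TTTGGCGC, TTTCCCGC and TTTGCCGC). Mki67 lies at chr7:135716330-135716629 (minus strand), Top2a at chr11:99024140-99024439 (minus), Mcm6 at chr1:128359656-128359955 (minus), Cdt1 at chr8:122567765-122568064 (plus), Pcna at chr2:132253131-132253430 (minus) and Rrm2 at chr12:24708004-24708303 (plus).
Mki67: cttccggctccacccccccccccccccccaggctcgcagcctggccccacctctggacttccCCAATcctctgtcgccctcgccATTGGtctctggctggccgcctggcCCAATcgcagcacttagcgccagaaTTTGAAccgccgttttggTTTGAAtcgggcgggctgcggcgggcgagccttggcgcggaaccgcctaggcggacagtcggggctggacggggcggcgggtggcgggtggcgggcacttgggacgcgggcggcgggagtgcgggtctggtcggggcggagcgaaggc
Top2a: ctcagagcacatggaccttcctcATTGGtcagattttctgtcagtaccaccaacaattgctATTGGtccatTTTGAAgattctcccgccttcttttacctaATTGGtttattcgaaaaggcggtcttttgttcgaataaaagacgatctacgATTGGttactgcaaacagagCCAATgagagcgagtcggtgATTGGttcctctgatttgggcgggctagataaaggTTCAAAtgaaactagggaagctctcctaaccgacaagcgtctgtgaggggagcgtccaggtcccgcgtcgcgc
Mcm6: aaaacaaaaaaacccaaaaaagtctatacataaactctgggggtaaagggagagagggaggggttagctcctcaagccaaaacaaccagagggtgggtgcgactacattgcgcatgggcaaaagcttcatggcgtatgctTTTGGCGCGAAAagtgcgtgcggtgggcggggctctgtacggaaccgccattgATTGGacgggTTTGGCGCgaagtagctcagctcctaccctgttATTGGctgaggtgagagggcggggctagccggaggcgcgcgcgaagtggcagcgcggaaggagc
Cdt1: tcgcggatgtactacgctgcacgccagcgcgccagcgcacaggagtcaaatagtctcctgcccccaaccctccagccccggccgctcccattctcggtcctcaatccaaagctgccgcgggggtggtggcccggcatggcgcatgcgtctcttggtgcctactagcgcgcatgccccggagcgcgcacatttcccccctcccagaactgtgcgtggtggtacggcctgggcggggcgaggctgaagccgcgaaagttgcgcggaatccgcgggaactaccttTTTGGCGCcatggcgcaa
Pcna: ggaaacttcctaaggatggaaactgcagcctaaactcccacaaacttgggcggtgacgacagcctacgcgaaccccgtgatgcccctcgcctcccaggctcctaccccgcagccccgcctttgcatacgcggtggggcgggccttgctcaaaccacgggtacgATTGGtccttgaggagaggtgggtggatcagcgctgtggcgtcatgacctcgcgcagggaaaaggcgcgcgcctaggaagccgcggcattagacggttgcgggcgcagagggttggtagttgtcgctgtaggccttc
Rrm2: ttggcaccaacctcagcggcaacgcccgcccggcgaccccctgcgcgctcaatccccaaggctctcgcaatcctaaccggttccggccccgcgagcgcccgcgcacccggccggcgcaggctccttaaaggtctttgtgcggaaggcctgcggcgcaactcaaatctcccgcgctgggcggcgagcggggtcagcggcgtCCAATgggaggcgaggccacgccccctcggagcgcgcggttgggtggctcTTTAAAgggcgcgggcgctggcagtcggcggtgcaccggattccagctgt

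RefSeq promoters matched 32 of the 40 genes. Ccnd1, Ccnd2, Ccna2, Ccne2, Mcm4, Aurkb, Kif20a and Tpx2 had no entry. A CHR was found in 65.6% of the 32 genes, against 30.6% of 27025 genes with a promoter, a CCAAT box in 78.1% against 41.1%, both in 56.2% against 12.2%, and an E2F form in 18.8% against 2.6%. The motif counts are given by role, and their differences were not tested. A CHR and a CCAAT box stood together in 8 of 9 spindle, chromosome and cytokinesis genes and in 7 of 9 mitotic cyclin, kinase and checkpoint genes, but in 3 of 11 replication genes. The E2F forms were found in 6 genes, which were Mcm3, Mcm5, Mcm6, Mcm7 and Cdt1 of the replication genes and Cdk1 of the mitotic genes. The TATA box (TATAAA) was in none of the 32, against 15.7% of all genes. Motifs of different kinds overlapped in 1 of the 35 promoters of these genes. A match is a run of letters, not a shown binding site. Top2a held 6 CCAAT boxes and 2 CHR, Mki67 held 3 and 2, Mcm6 held 2 CCAAT boxes and 3 E2F matches, of which a pair overlap in the long run of capitals, and Cdt1 held an E2F match alone. Pcna held 1 CCAAT box, and Rrm2 held 1 CCAAT box and 1 CHR.

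Levels differed over a wide range among the 40 genes. Per kilobase of annotated exon, the mean over the 12 libraries was highest for Ccnd2 (160 normalized counts per kilobase) and Pcna (151), followed by Ccnd1 (40.3) and Mcm6 (33.7). It was lowest for Cenpf (0.86), a kinetochore protein, and Hmmr (1.54), a spindle protein. At the low end depth limits the values, since 1 read was worth 0.397 to 1.8 normalized counts and Hmmr had 147 reads in all libraries together. Aurkb, Birc5, Bub1 and Plk1 had at least 1 library at 0. The filter on low counts was passed by 31 of the 40 genes, and not by Ccne1, Ccnb2, Plk1, Aurkb, Bub1, Birc5, Cenpe, Cenpf and Hmmr, so the fold changes below cover 31.

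None of the 40 genes passed the test between anti-CD3 and IgG. With edgeR's quasi-likelihood test and Benjamini-Hochberg adjustment over 13115 genes, 0 of the 31 tested genes had an adjusted p under 0.05, where 10 of all genes (0.0762%) did, all higher with anti-CD3. At an unadjusted p under 0.05, 3 of the 31 lay lower with anti-CD3, Mcm4, Mcm6 and Ccnd1, and none higher, against 8.68% of all genes lower and 9.68% higher. The log2 ratio of anti-CD3 to IgG levels fitted by edgeR, called the log2 fold change, was below 0 in 27 of the 31, with a median of -0.53, while 55.1% of all genes were below 0 with a median of -0.05. DESeq2 called 455 genes (3.78%) but also 0 of the 29 cell cycle genes it gave an adjusted p, and 5 of those 29 lay lower at an unadjusted p under 0.05, against 10.1% of the genes with an adjusted p, and limma-voom called 135 genes and 0 of the 31. In the authors' deposited table, 37 of the 40 had a log2 fold change below 0, and 17 had an adjusted p, the lowest being 0.15 for Mcm4. Of those without an adjusted p, Aurkb had -2.25 (unadjusted p = 0.00367 by the authors' test), Cenpe -1.46 (p = 0.0392) and Ccne1 -1.28 (p = 0.0247). These genes were below the filter on low counts, and the share of all such genes under 0.05 was not counted.

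**Figure D1:**
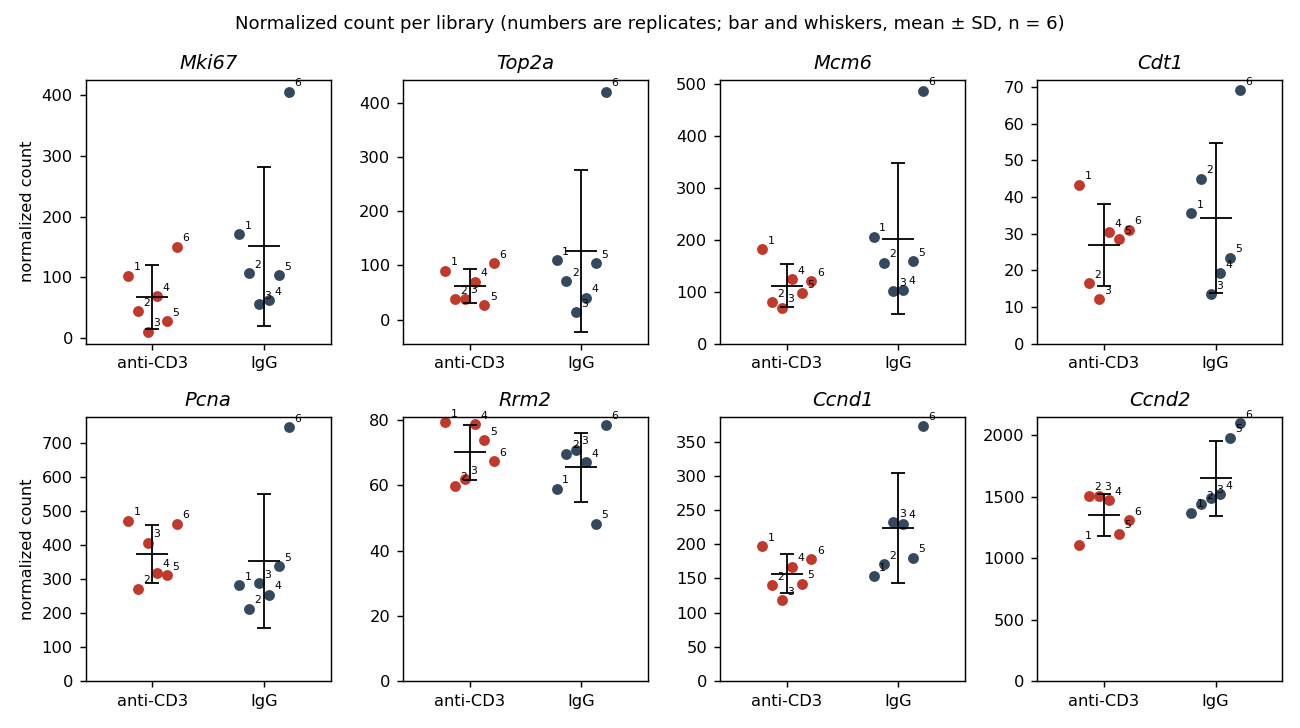
Normalized count (y axis) of 8 cell cycle genes in each library, anti-CD3 left and IgG right, with the replicate number beside each point and the mean ± SD of 6 libraries as bar and whiskers. IgG 6 is the highest library for all of them but Rrm2, and the groups overlap in every panel.

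The groups overlapped for all 40 genes, where 1.72% of all genes had groups that did not overlap in either direction. A single library carried much of the difference. IgG 6 was the highest of the 12 libraries in 36 of the 40 genes, against 24.7% of all genes, with a median of 1.83 times the highest other library. The other 4 genes were Ccnd3, Ccne2, Rrm2 and Tyms. Without IgG 6 the median log2 fold change was -0.15, with 22 of 31 tested genes below 0. Without IgG 5 and IgG 6 it was -0.03, with 17 of 32 below 0. With the Ptprc level as a covariate it was -0.12, and with the acinar score, the mean log2 level of the acinar list, it was 0.23. In each of these edgeR fits 0 of the 40 genes had an adjusted p under 0.05. Of all genes, 5 of 13087 did without IgG 6, 0.00757% without IgG 5 and IgG 6, 1.38% with the Ptprc covariate and 0.0% with the acinar covariate. At an unadjusted p under 0.05, Pcna alone lay higher with anti-CD3 without IgG 5 and IgG 6 (6.23% of all genes higher, 4.16% lower) and with the acinar covariate (5.15% higher, 4.42% lower), and none of the 40 did in either direction with the Ptprc covariate (9.55% higher, 8.26% lower). Several lists of other cell types lay wholly to one side of 0 in the fit of all libraries. Others were mixed, with 19 of 27 tested islet endocrine genes, 9 of 12 endothelium, 4 of 7 plasma cell and 4 of 11 duct genes below 0. The median log2 fold change was -1.17 for the T cell list (17 of 17 tested genes below 0), -1.43 for the B cell list (13 of 13), -0.31 for the macrophage list (11 of 11), -1.04 for the stroma list (16 of 16, of which 9 were under 0.05 unadjusted) and 0.64 for the acinar list (26 of 26 above 0, of which 7 were under 0.05 unadjusted). In the edgeR fit of all libraries 0 genes of the cell type lists had an adjusted p under 0.05, against 0.0762% of all genes. With the Ptprc covariate edgeR called 1 of 16 stroma genes lower, against 1.38% of all genes. DESeq2 called 3 of 16 stroma genes lower and 1 acinar and 1 plasma cell gene higher, against 3.78% of all genes in either direction. Leaving out IgG 5 and IgG 6, the medians were -0.23 (T cell), 0.15 (B cell), 0.00 (macrophage), -0.69 (stroma) and 0.27 (acinar). The part that the content of these cells plays in the difference was not tested beyond the covariate fits.

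Among the G1 genes, Ccnd1, Ccnd2 and Ccnd3 encode the D-type cyclins that activate Cdk4 and Cdk6. Ccnd1 had 118, 154 and 197 normalized counts with anti-CD3 (lowest, median, highest), against 153, 205 and 373 with IgG. All 6 anti-CD3 libraries were below IgG 3, IgG 4 and IgG 6, but the ranges overlapped, and its log2 fold change was -0.51 ± 0.21 (SE, edgeR adjusted p = 0.215). Ccnd2 had 1110, 1390 and 1510 with anti-CD3, against 1370, 1510 and 2100 with IgG. Its 2 highest libraries were IgG 6 and IgG 5, and the log2 fold change was -0.28 ± 0.15 (edgeR adjusted p = 0.324). Ccnd3 spanned 148 to 243 with anti-CD3 and 157 to 238 with IgG, nearly the same range, with a log2 fold change of -0.04 ± 0.15. E2f1, the transcription factor that switches on S phase genes, had 12.8 to 26.9 with anti-CD3 and 15.6 to 32.9 with IgG, where 5 of the IgG libraries lay between 15.6 and 18.2. The E-type cyclins, which start S phase with Cdk2, averaged 7.06 ± 6.62 for Ccne1 and 21.2 ± 11.3 for Ccne2 with anti-CD3, against 16.1 ± 9.83 and 25.6 ± 4.72 with IgG (SD, n = 6 each).

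The replication genes include the 6 subunits of the MCM helicase, of which Mcm2 to Mcm7 are all present here. Mcm6 had 69.2, 108 and 182 normalized counts with anti-CD3 (lowest, median, highest), against 101, 158 and 487 with IgG. Only IgG 1 and IgG 6 were above every anti-CD3 library, and its log2 fold change was -0.87 ± 0.38 (edgeR adjusted p = 0.245), or -0.37 ± 0.27 without IgG 5 and IgG 6. Mcm4 had 26.7, 36.1 and 59.3 with anti-CD3, against 33.3, 61.9 and 207 with IgG, where IgG 2, IgG 5 and IgG 6 lay above every anti-CD3 library (log2 fold change -0.99 ± 0.42, edgeR adjusted p = 0.23). Mcm3 and Mcm5 had log2 fold changes of -0.89 ± 0.50 and -0.84 ± 0.56, while Mcm2 and Mcm7 had -0.36 ± 0.30 and -0.12 ± 0.23. Cdt1, which loads the helicase at origins, had 12.1, 29.3 and 43.3 with anti-CD3, against 13.5, 29.5 and 69.1 with IgG. Its medians were nearly equal and the log2 fold change was -0.39 ± 0.40.

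Pcna is the sliding clamp of the DNA polymerases. It had 272, 362 and 471 normalized counts with anti-CD3 (lowest, median, highest), against 212, 284 and 747 with IgG, and IgG 6 was the single highest. Its log2 fold change was 0.08 ± 0.28 over all libraries (edgeR adjusted p = 0.897) and 0.53 ± 0.18 without IgG 5 and IgG 6 (edgeR adjusted p = 0.329). Of the nucleotide-making enzymes, Rrm1, the large subunit of ribonucleotide reductase, had 89.5, 103 and 171 with anti-CD3, against 86.3, 121 and 310 with IgG. Its partner Rrm2, the S phase subunit, did not share that range. Rrm2 had 59.9, 70.6 and 79.4 with anti-CD3, against 48.3, 68.4 and 78.6 with IgG, the narrowest spread of the replication genes, and IgG 6 was below anti-CD3 1 and anti-CD3 4. Tyms, thymidylate synthase, averaged 32.2 ± 17.8 with anti-CD3 and 30.2 ± 12.4 with IgG, and Tk1, thymidine kinase, 32.5 ± 13.3 with anti-CD3 and 46.4 ± 23.8 with IgG (SD, n = 6 each).

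Mitotic cyclins, kinases and checkpoint genes were low and varied widely between libraries of the same group. Ccna2, the cyclin of S phase and early mitosis, had 6.57, 12.9 and 74.0 normalized counts with anti-CD3 (lowest, median, highest), against 5.63, 15.9 and 103 with IgG. Ccnb1, the cyclin that partners Cdk1, had 6.07, 12.2 and 55.2 with anti-CD3, against 3.6, 17.7 and 101 with IgG. In both genes one anti-CD3 library, anti-CD3 1 for Ccna2 and anti-CD3 6 for Ccnb1, was second only to IgG 6. Cdk1, the mitotic kinase, had 8.21 to 33.7 with anti-CD3 and 12 to 74.6 with IgG. Cdc20, which directs the destruction of mitotic cyclins, had 6.07 to 45.1 with anti-CD3 and 4.8 to 82.6 with IgG. Bub1b, a spindle checkpoint protein, had the lowest log2 fold change of these genes, -1.20 ± 0.71 (edgeR adjusted p = 0.373), with 4.1 to 22.9 with anti-CD3 and 2.25 to 81.4 with IgG. Without IgG 5 and IgG 6 it was 0.03. Bub1, its checkpoint partner, had 0 to 18 with anti-CD3 and 2.25 to 45.3 with IgG and was too low to be tested. Ccnb2, another mitotic cyclin, Plk1, the polo kinase, Aurkb and Birc5, both of the chromosomal passenger complex, were also below the filter. Their means were 3.45 to 9 with anti-CD3 and 14.1 to 18.2 with IgG. Aurka, the centrosome kinase, had a log2 fold change of -0.57 ± 0.51.

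Among the genes of the spindle, chromosomes and cytokinesis, Mki67, the Ki-67 antigen that coats mitotic chromosomes and is the standard marker of cycling cells, had 10.9, 56.8 and 151 normalized counts with anti-CD3 (lowest, median, highest), against 56.3, 106 and 406 with IgG. Anti-CD3 2, 3 and 5 lay below every IgG library, but anti-CD3 6 exceeded all IgG libraries except IgG 1 and IgG 6. Its log2 fold change was -1.18 ± 0.60 (edgeR adjusted p = 0.308), -0.60 ± 0.29 with Ptprc as a covariate and -0.58 ± 0.59 without IgG 5 and IgG 6. Top2a, topoisomerase II alpha, had 27.0, 54.4 and 104 with anti-CD3, against 13.5, 87.5 and 420 with IgG, and its lowest library was IgG 3. The log2 fold change of Top2a was -1.07 ± 0.64 (edgeR adjusted p = 0.388) and 0.03 ± 0.51 without IgG 5 and IgG 6. Tpx2, which nucleates spindle microtubules, had 2.43 to 68.7 with anti-CD3 and 16.8 to 198 with IgG and the lowest log2 fold change of the 31, -1.23 ± 0.71. Prc1, which bundles the midzone of the spindle, had the highest of these genes, -0.34 ± 0.33. The motor proteins of the spindle, Kif11, Kif20a and Kif23, had -0.99 ± 0.65, -0.77 ± 0.46 and -0.93 ± 0.63, and Nusap1, which binds spindle microtubules, had -1.08 ± 0.67. The kinetochore proteins Cenpe and Cenpf and the spindle protein Hmmr were below the filter, with means of 6.15 to 11.9 with anti-CD3 and 10.6 to 32.1 with IgG. The median log2 fold changes by role were -0.28 for the G1 genes, -0.42 for the replication genes, -0.57 for the mitotic genes and -1.03 for the spindle genes, and the differences between roles were not tested. When IgG 5 and IgG 6 were left out, these medians were -0.10 for the G1 genes, -0.06 for the replication genes, 0.18 for the mitotic genes and 0.01 for the spindle genes, so that the order of the roles did not hold. Without IgG 6 alone they were -0.21 for the G1 genes, -0.05 for the replication genes, 0.21 for the mitotic genes and -0.25 for the spindle genes.

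**Figure D2:**
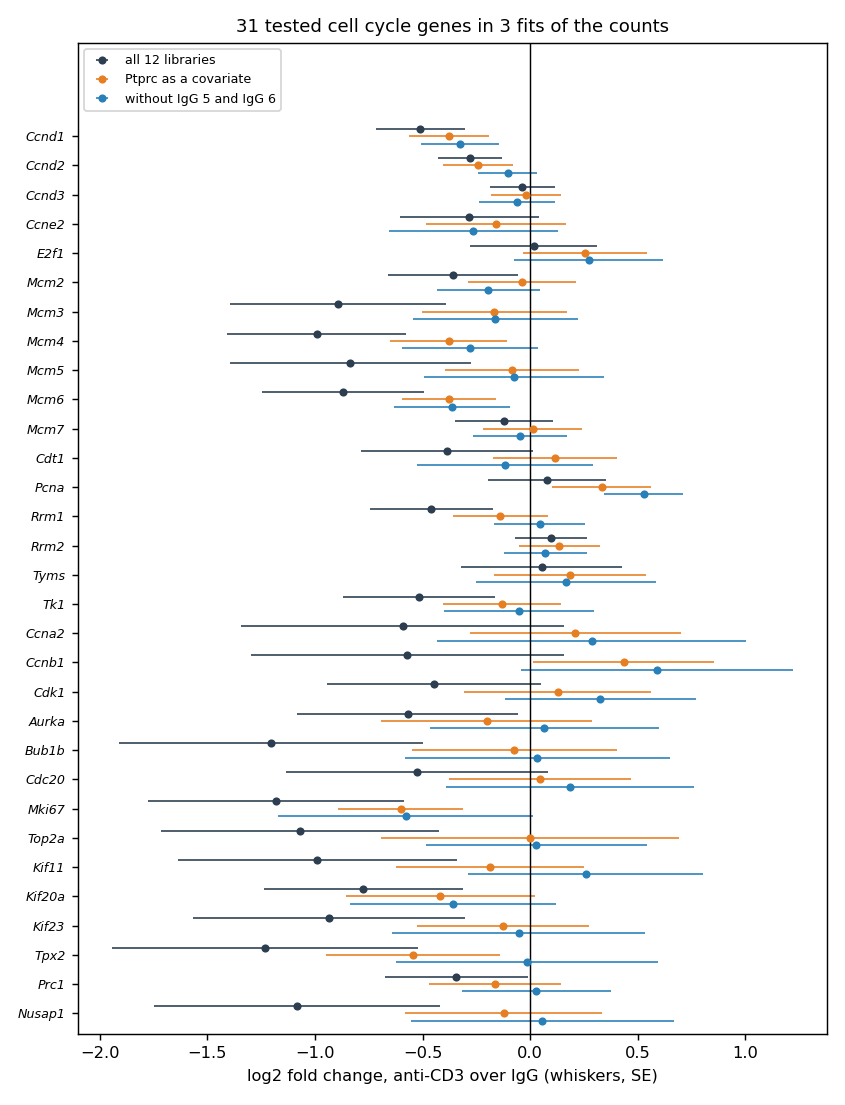
Fitted log2 ratio of anti-CD3 to IgG levels (x axis, whiskers SE) for the 31 tested genes in 3 fits: all 12 libraries, Ptprc as a covariate, and without IgG 5 and IgG 6. With all libraries 27 of 31 points lie below 0, and the median moves to -0.12 and -0.03 in the other fits.

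Other genes of the cycle, listed by function, gave no call by edgeR over all libraries, while DESeq2 called Dnmt1 and Cdk6 lower and limma-voom called Cdk6 lower with anti-CD3. Of 34 further replication genes, 28 were tested, 23 were below 0 and the median log2 fold change was -0.30. Of the 28, 17 were above 0 without IgG 5 and IgG 6, with a median of 0.065. The smallest p belonged to Dnmt1, the maintenance DNA methyltransferase (-0.64 ± 0.18, edgeR adjusted p = 0.107, DESeq2 adjusted p = 0.0401), and Orc6, of the origin recognition complex (-0.59 ± 0.20, adjusted p = 0.16). Of 43 further mitotic genes, 24 were tested, 19 were below 0 and the median was -0.67, while without IgG 5 and IgG 6 15 were above 0 and the median was 0.14. The smallest p belonged to Racgap1, a cytokinesis regulator, at -1.16 ± 0.36 (edgeR adjusted p = 0.138) and Mad2l1, a checkpoint protein, at -0.82 ± 0.43 (adjusted p = 0.317). Of 24 cell cycle kinases, inhibitors and E2F factors, 21 were tested, 13 were below 0 and the median was -0.16, or 11 below 0 with a median of -0.002 without IgG 5 and IgG 6. Cdk6, the partner of D-type cyclins that is abundant in blood cells, came closest to the threshold by edgeR (-0.97 ± 0.20, edgeR adjusted p = 0.0659) and passed it by DESeq2 (-0.98 ± 0.24, DESeq2 adjusted p = 0.00466), by limma-voom (adjusted p = 0.047) and by edgeR without anti-CD3 2 (-1.06 ± 0.21, adjusted p = 0.031), followed by E2f3 (-0.59 ± 0.27, adjusted p = 0.261).

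A further question was whether the 40 genes follow Ptprc, the islet genes or the acinar genes from library to library. Across the 12 libraries the 40 genes followed Ptprc most often. On the scale of log2(normalized count + 1), the correlation with Ptprc was above 0 for all 40, with a median Pearson r of 0.76 (range 0.20 to 0.93) and a median Spearman rho of 0.67, where the median over all genes was -0.06 for both. By a permutation test of 100000 draws, adjusted by Benjamini-Hochberg over 13702 genes, 23 of the 40 had a positive Pearson correlation at an adjusted p under 0.05, against 11.9% of all genes. By rank the count was 7 of 40, against 7.8% of all genes, and the 7 were Mcm6, Cdt1, Bub1, Mki67, Top2a, Cenpe and Cenpf. Of these 7, Bub1, Cenpe and Cenpf were below the filter on low counts, which was not applied to the correlations. At an unadjusted p under 0.05, 28 were positive by Pearson, against 17.6% of all genes, and 26 by rank, against 15.4%. Each point is 1 library, whose depth and scaling enter both axes.

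By role, the median r with Ptprc was 0.55 for the G1 genes, 0.78 for the replication genes, 0.76 for the mitotic genes and 0.82 for the spindle genes. Past the adjusted threshold by Pearson were 1 of 6 G1 genes (E2f1), 7 of 12 replication genes, 6 of 11 mitotic genes and 9 of 11 spindle genes. Of these, Plk1, Bub1, Cenpe, Cenpf and Hmmr were below the filter on low counts. Bub1 had 204 reads in all libraries together and 1 library at 0. Bub1 had the highest correlation (r = 0.93, permutation p = 4e-05, adjusted p = 0.00163, and rho = 0.92, permutation p = 0.00011, adjusted p = 0.00664). Mki67 followed (r = 0.89, permutation p = 0.00016, adjusted p = 0.00372, and rho = 0.85, permutation p = 0.00083, adjusted p = 0.0195), and then Cdt1 (r = 0.88, permutation p = 0.00025, adjusted p = 0.00495, and rho = 0.83, permutation p = 0.00166, adjusted p = 0.0287). Top2a had r = 0.87 (permutation p = 0.00035, adjusted p = 0.00613) and Mcm6 r = 0.86 (permutation p = 0.00024, adjusted p = 0.00481). At the other end stood Rrm2 (r = 0.20, permutation p = 0.535), Ccnd3 (r = 0.23, permutation p = 0.47), Ccnd2 (r = 0.37), Aurka (r = 0.37), Tyms (r = 0.40), Mcm7 (r = 0.41) and Pcna (r = 0.45), none of them past the adjusted threshold.

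**Figure D3:**
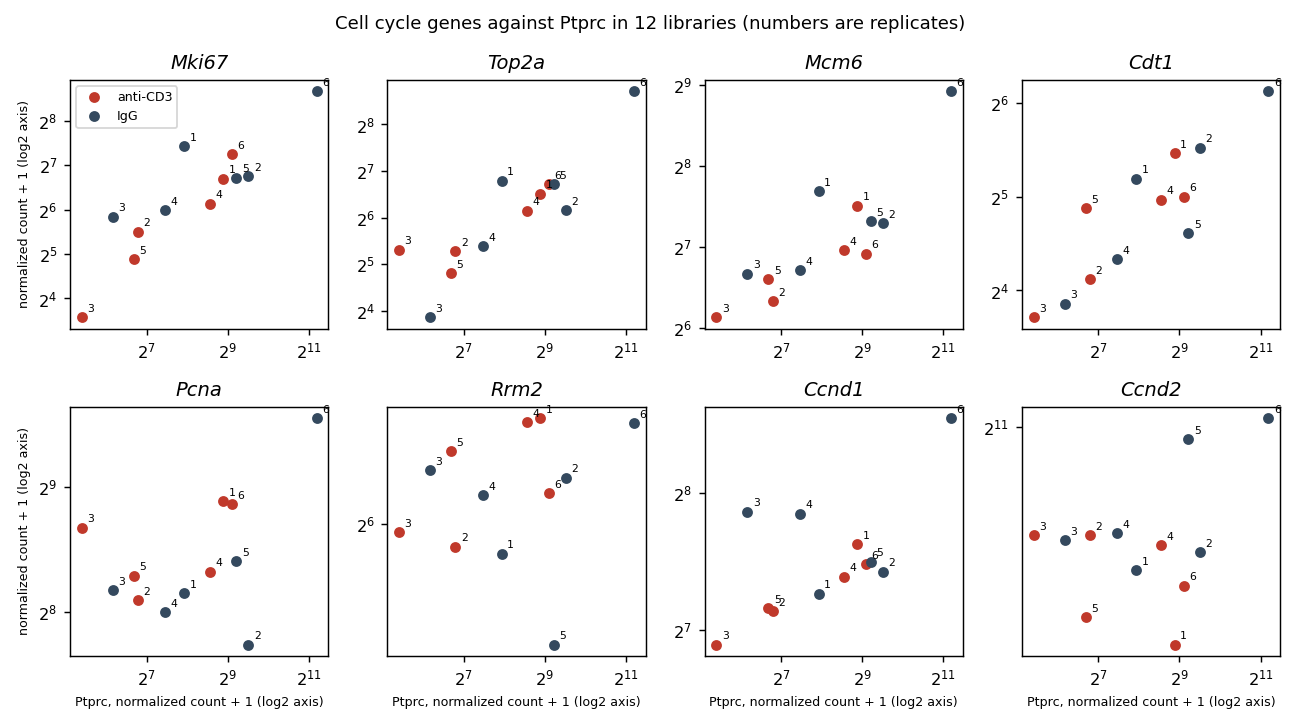
Normalized count + 1 of 8 cell cycle genes (y axis, log2) against that of Ptprc (x axis, log2) in the 6 anti-CD3 and 6 IgG libraries, numbered by replicate. Within each group Mki67, Top2a, Mcm6 and Cdt1 have r of 0.83 to 0.97 with Ptprc, and Pcna, Rrm2 and Ccnd2 have r of -0.45 to 0.68. Ccnd1 has r of 0.97 in the anti-CD3 libraries and 0.38 in the IgG libraries. IgG 6 is the point farthest right in every panel.

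IgG 6 alone decided most of these calls. Without it, the median r was 0.62 and 2 of 40 were called, against 4.82% of all genes. Without IgG 5 and IgG 6 the median r was 0.63 over 10 libraries, and the 2 called were Bub1 (r = 0.88, permutation p = 0.00089, adjusted p = 0.0399) and Cdt1 (r = 0.89, permutation p = 0.00106, adjusted p = 0.0428), against 2.83% of all genes. Of these 2, Bub1 was below the filter on low counts. By rank 0 of 40 were called over these 10 libraries, against 0.569% of all genes, and 14 of 40 were under 0.05 unadjusted, against 10.1%. By Pearson 20 were under 0.05 unadjusted, against 10.5%. Mki67 and Top2a then had r = 0.82 and 0.77, with permutation adjusted p = 0.0668 and 0.141. Without the 2 libraries farthest from the median of Ptprc, anti-CD3 3 and IgG 6, the median r was 0.54, and 0 of 40 were called by Pearson or Spearman at an adjusted p under 0.05, against 0.854% and 0.0438% of all genes. At an unadjusted p under 0.05, 16 of 40 were then positive by Pearson, against 9.46% of all genes, and 12 by rank, against 8.86%. Mki67 had r = 0.73 and Top2a r = 0.87 over these libraries.

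Within each group the correlation was of like size. The median r with Ptprc was 0.74 among the 6 anti-CD3 libraries, where 38 of 40 were above 0, and 0.76 among the 6 IgG libraries, where 40 of 40 were above 0. At an unadjusted exact permutation p under 0.05, over all 720 orders, 13 of 40 were positive in the anti-CD3 libraries against 9.11% of all genes, and 16 of 40 in the IgG libraries against 13.2%. By rank the counts were 11 of 40 in the anti-CD3 libraries against 6.5%, and 3 of 40 in the IgG libraries against 7.7%, so that in the IgG libraries the ranks gave no more than the background. The smallest p that 6 libraries allow by Pearson is 0.00139, and 0 genes of any kind passed the adjustment. In the anti-CD3 libraries, Mki67 had r = 0.97 with Ptprc (exact permutation p = 0.00139, adjusted p = 0.175), and the 6 libraries stood in the same order for both genes (rho = 1.00). With group means removed from all genes the median r over 12 libraries was again 0.76.

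Correlations with the islet endocrine score, the mean log2 level of its 27 genes, were mostly negative, with r from -0.76 to 0.44. The median r was -0.17 (0.69 with total counts in place of size factors), 7 of 40 were above 0, and 0 of 40 passed the adjusted permutation test, where 0.0% of 13676 genes did. With the acinar score the median r was -0.64 over 12 libraries. Of the 40, 5 had a negative Pearson correlation with it at a permutation adjusted p under 0.05 (Ccnd2, Rrm1, Tk1, Aurkb and Cenpe), against 4.02% of all genes negative and 12.2% in either direction. By rank it was Aurkb alone, against 1.33% negative and 5.18% in either direction. Without IgG 5 and IgG 6 the median with the acinar score was -0.09 and 0 of 40 passed, where 0.0219% of all genes did in either direction. Within groups it was 0.33 with anti-CD3 and -0.87 with IgG. Ptprc itself had r = -0.66 with the acinar score over 12 libraries and -0.14 without IgG 5 and IgG 6. Of the 3 measures, Ptprc gave the highest r, counted with its sign, for 39 of the 40 genes over all libraries and for 35 without IgG 5 and IgG 6. Within groups it did so for 38 in the IgG libraries and for 32 in the anti-CD3 libraries. In the anti-CD3 libraries the acinar score gave the highest r for 7 genes and the islet score for 1. Negative correlations with the acinar score do not enter these counts. Over 12 libraries its r was larger in size than that with Ptprc for some genes, such as Rrm1 (-0.82 against 0.75) and Aurkb (-0.78 against 0.65). For others, such as Mki67 (-0.64 against 0.89), it was smaller.

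**Figure D4:**
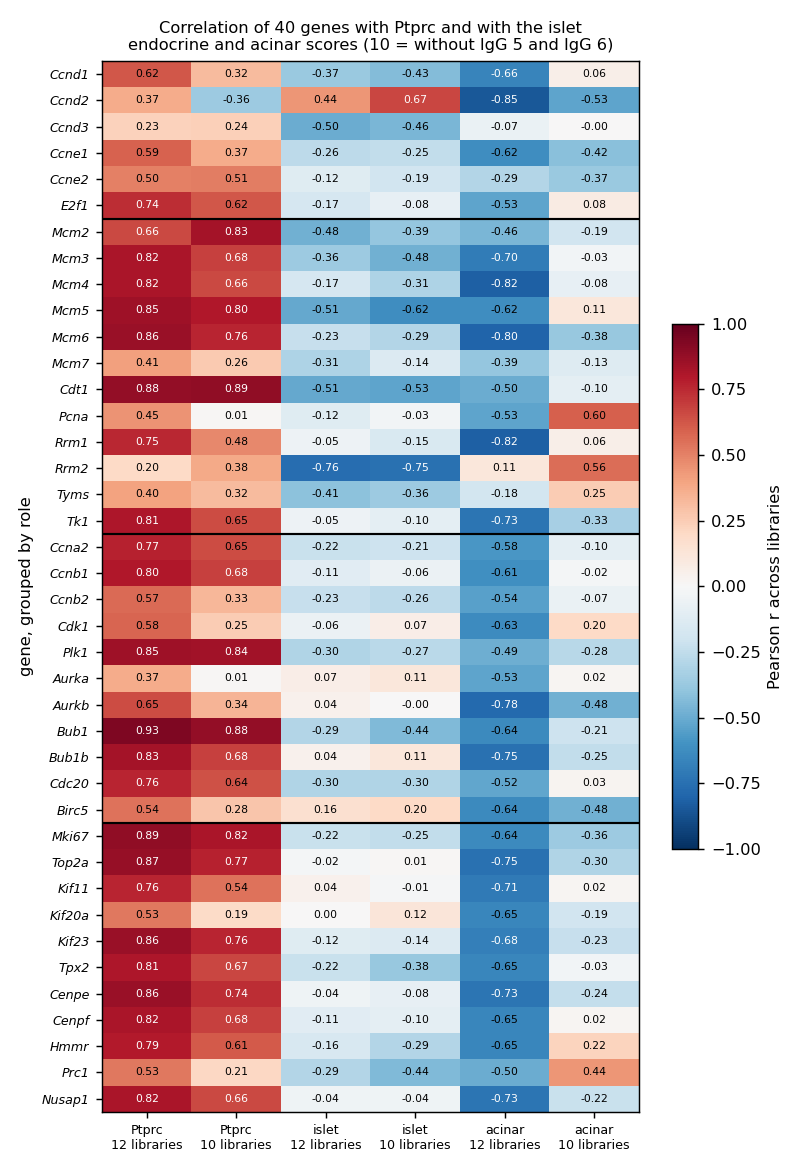
Pearson r across libraries of each of the 40 genes (rows, lines divide the 4 roles) with Ptprc, the islet endocrine score and the acinar score, over 12 libraries and over 10 without IgG 5 and IgG 6. The Ptprc columns are positive for all genes over 12 libraries (median 0.76), the islet column over 12 libraries has a median of -0.17, and the acinar column is near 0 (median -0.09) over 10 libraries.

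A few genes departed from the rest. Over 12 libraries Ccnd2 was the only one of the 40 whose r with the islet endocrine score was above its r with Ptprc and with the acinar score. Its r with the islet score, the highest of the 40, was 0.44 (permutation p = 0.148, adjusted p = 0.899, rho = 0.48), and it was 0.67 without IgG 5 and IgG 6 (permutation p = 0.034, adjusted p = 0.767, rho = 0.58). In the 6 anti-CD3 libraries r was 0.89 (exact permutation p = 0.00694, adjusted p = 0.552) and the order of the libraries was the same for both (rho = 1.00), whereas in the 6 IgG libraries r was -0.02. The difference between the groups was not tested. Against Ptprc, Ccnd2 had r = 0.37 over all libraries and -0.36 without IgG 5 and IgG 6, and against the acinar score it had r = -0.85 (permutation p = 0.00034, adjusted p = 0.0122) and rho = -0.71 (permutation p = 0.0126, adjusted p = 0.112).

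Rrm2 ran against the islet score, with r = -0.76 (permutation p = 0.00387, adjusted p = 0.529) and rho = -0.76 over 12 libraries, r = -0.72 with anti-CD3 and r = -0.87 with IgG. Pcna had r = 0.01 with Ptprc and r = 0.60 with the acinar score without IgG 5 and IgG 6 (permutation p = 0.063, adjusted p = 0.393, and rho = 0.75, permutation p = 0.0175, adjusted p = 0.296). Ccnd3 had r = 0.23 with Ptprc and -0.13 without anti-CD3 3. Ccnd1 had r = 0.97 with Ptprc in the 6 anti-CD3 libraries (exact permutation p = 0.00833, adjusted p = 0.197) but 0.38 in the 6 IgG libraries, a difference that was not tested. None of these passed the adjusted threshold.

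Ptprc did not stand alone, since other cell types moved with it. It had r = 0.97 with the T cell score, 0.96 with the B cell score, 0.91 with the macrophage score and 0.94 with a stroma score of 16 collagen, fibroblast and mural cell genes, and the 40 genes had median r of 0.72, 0.74, 0.78 and 0.74 with these scores. The summed leukocyte list (12 of 12 genes above 0 in every library) spanned 530 to 4010 normalized counts with anti-CD3 and 755 to 14200 with IgG. The summed T cell list spanned 124 to 1270 with anti-CD3 and 186 to 4040 with IgG, and the B cell list 53.4 to 745 with anti-CD3 and 95.7 to 3200 with IgG, with Ms4a1 and Pax5 among 8 of its 14 genes at 0 in at least 1 library. In the T cell list 2 of 17 genes, Cd247 and Lat, and in the macrophage list 1 of 12, Itgam, were at 0 in at least 1 library. The macrophage list spanned 1110 to 4310 with anti-CD3 and 1530 to 11400 with IgG, and the stroma list 835 to 3110 with anti-CD3 and 1620 to 6710 with IgG. Which of these cells held the cell cycle transcripts was not tested.

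Outside the cell cycle and cell type lists, whose genes were not ranked, 11070 genes were ranked by likeness to Mki67 across the 12 libraries. The 8 closest were Pcolce (r = 0.97), Ccdc80, Sparc, Pak1, H2-DMa, Mical1, Mmp14 and Loxl1 (r = 0.94). Pcolce, Ccdc80, Sparc, Mmp14 and Loxl1 encode proteins of the extracellular matrix or its processing, and H2-DMa is part of antigen loading on MHC class II. Without IgG 5 and IgG 6 their r with Mki67 was 0.91 to 0.96. Mki67 had r = 0.95 with the stroma score and 0.89 with Ptprc over 12 libraries, and 0.93 and 0.82 without IgG 5 and IgG 6, a difference that was not tested. Of the 40 genes, those closest to Mki67 were Plk1 (r = 0.93), Tpx2 (r = 0.92) and Bub1 (r = 0.91), and those farthest from it included Rrm2 (r = 0.14). Spindle genes had the highest median r with one another, 0.77 over 55 pairs, and G1 genes the lowest, 0.35 over 15 pairs, against 0.57 and 0.12 without IgG 5 and IgG 6.

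Relative to Ptprc the groups did not separate. Mki67 per 100 normalized counts of Ptprc was 27.1 ± 7.46 with anti-CD3 and 39.1 ± 28.8 with IgG (SD, n = 6 each, two-sided exact permutation test over 924 regroupings of the log2 ratio, p = 0.6). The ratio was narrow with anti-CD3, 18.4 to 40.3, although Ptprc varied from 41.3 to 548, and wide with IgG, 14.6 to 79.4. IgG 6, with the highest Mki67 and the highest Ptprc, had a ratio of 17.3, and like IgG 2 and IgG 5 lay below every anti-CD3 library. Top2a per 100 of Ptprc was 35.3 ± 29.5 with anti-CD3 and 22.1 ± 12.1 with IgG (SD, n = 6 each, exact permutation p = 0.305), and the highest value, 94.1, was that of anti-CD3 3, the library with the least Ptprc.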

How the data were processed

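Poly(A) RNA of isolated islets was primed with random primers and sequenced, per the labels' protocols. The submitters' processing notes name Trimmomatic 0.36, STAR 2.5.2b, featureCounts of Subread 1.5.2, DESeq2 and GRCm38 (mm10), without order or options. Of the counting, neither the annotation release nor the strand option is given in the sources used here. Overlapping genes on opposite strands may therefore share reads. Raw read counts were deposited for 49315 genes. The authors' deposited comparison table holds 13703 genes with a normalized signal (each library's counts over a single size factor, checked against the raw counts), a log2 fold change and p-values from the authors' own test, 2935 of the adjusted ones NA. Every per-sample column was mapped to a sample.

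Groups came from the sample titles. Counts were tested in R 4.3.3 with edgeR 4.0.16 (filterByExpr with minimum count 10, TMM, robust quasi-likelihood F test, two-sided, adjusted p under 0.05). SEs were derived as the size of the log2 ratio over the square root of F, which is imprecise for ratios close to 0. Correlations used log2(normalized count + 1), and a score is the mean of that value over a list. Two-sided permutation p-values came from 100000 draws, or all 720 orders within a group, adjusted over all genes outside the anchor. Python 3.11.15 libraries were numpy 2.4.6, scipy 1.17.1, pandas 2.3.3 and matplotlib 3.10.9. Gene lengths came from GENCODE M21 (GRCm38) and promoters from RefSeq (GRCm38.p6). The procedure was checked on simulated data.

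The members and gene lists were chosen with earlier results of these data known. Genes named in full were, per role, the 3 with the highest mean and those with the lowest and highest log2 fold change, plus Mki67, Top2a and the D-type cyclins. Of the other cell cycle lists, the 2 genes with the smallest p were named, and for Mki67 the 8 protein-coding genes outside the lists with the highest r and a mean of at least 20. Genes singled out beyond this, such as Bub1, Cdt1 and Aurka, were chosen after their values were seen. Alternatives were DESeq2 1.42.0, limma-voom (limma 3.58.1), other scalings and filters, no robust estimation, a replicate block, acinar or Ptprc covariates, other transforms, ranks, single groups and libraries left out.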

Additional observations from a re-analysis of the deposited data

Results flagged for a closer look

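Within each group of 6 libraries, the highest and the lowest value of each of the 40 genes were compared with the rest on the log2 scale, and a library was listed where its gap to the nearest other, as a share of the range, was over Dixon's critical value for 6 values. Chance lists about 1 in 20 groups, and 4 of 80 (5.0%) were listed. All 4 were IgG 6. They were E2f1 at 32.9 normalized counts (gap 0.80 of the range), Mcm5 at 218 (gap 0.67), Cdk1 at 74.6 (gap 0.64) and Pcna at 747 (gap 0.63). IgG 6 also had the highest Ptprc (2340 normalized counts) and the lowest acinar share (27.9% of counts), and the part of either in these 4 values was not tested.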

How the results depend on the processing

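Under every one of the 24 alternatives to the fit, 0 of the 40 genes were called by edgeR, DESeq2 or limma-voom, and 0 to 9 were under 0.05 unadjusted. The 9, of 33 tested, lay lower with anti-CD3 in the fit without IgG 3, where 1351 of all 13303 genes tested did. The count of all genes called was 10 in the reported fit and moved to 455 with DESeq2, 135 with limma-voom, 167 with no filter on low counts, 181 with Ptprc as a covariate, 6 with upper-quartile factors, 5 without robust estimation, 0 with the acinar covariate, and 1 when IgG 5 and IgG 6 were left out. It ran from 0 to 203 when single libraries were left out (203 without anti-CD3 2, and 0 without anti-CD3 1, anti-CD3 5, anti-CD3 6 or IgG 5). The cause was not tested. With the replicate number as a block it was 0, and same-numbered libraries did not pair: the correlation of their deviations ran from -0.29 to 0.55, and only numbers 3 and 6 matched best with their own. The median log2 fold change of the 31 tested genes, -0.53, was 0.23 with the acinar covariate and -0.76 to -0.15 when single libraries were left out, -0.15 being without IgG 6. Of the 31 tested genes, 27 were below 0 in the reported fit and 8 with the acinar covariate. The count was 21 with the Ptprc covariate, 23 with limma-voom, and 17 of 32 without IgG 5 and IgG 6. By gene, signs were compared only for the 18 genes named in full. Among these, signs turned with the acinar covariate for Rrm1 (0.20), Ccna2 (0.85), Ccnb1 (1.13), Cdk1 (0.70), Bub1b (0.67), Cdc20 (0.57), Top2a (0.62), Tpx2 (0.30) and Prc1 (0.06). Without IgG 5 and IgG 6 they turned for Rrm1 (0.04), Ccna2 (0.29), Ccnb1 (0.59), Cdk1 (0.33), Bub1b (0.03), Cdc20 (0.18), Top2a (0.03) and Prc1 (0.03). With the Ptprc covariate they turned for Ccna2 (0.21), Ccnb1 (0.43), Cdk1 (0.13) and Cdc20 (0.04), with limma-voom for Ccnd3 (0.02) and Ccnb1 (0.09), and with DESeq2 for E2f1 (-0.01). With single libraries left out, Ccna2 ran from -1.39 to 0.26, Ccnb1 from -1.17 to 0.47, Cdk1 from -0.66 to 0.25, Cdc20 from -0.87 to 0.17, Ccnd3 from -0.10 to 0.04, E2f1 from -0.08 to 0.24 and Pcna from -0.03 to 0.44. The median r with Ptprc stayed between 0.62 and 0.81 when single libraries were left out. With total counts in place of size factors, 39 of 40 genes were called positive with Ptprc, but so were 41.8% of all genes, and the median r with the islet score was 0.69, against -0.17. The median r with the acinar score was 0.33 in the anti-CD3 libraries and -0.09 without IgG 5 and IgG 6, and -0.70 to -0.21 with single libraries left out. The r of Ccnd2 with Ptprc turned to -0.45 in the anti-CD3 libraries and -0.36 without IgG 5 and IgG 6. That of Ccnd3 turned to -0.01 by rank and ran from -0.13 to 0.37 with single libraries left out. The filter on low counts left 9 of the 40 out of the reported fit, of which 5 were mitotic, 3 spindle and 1 G1 genes. With no filter on low counts all 40 were tested and 0 were called.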
